A study of Homo sapiens with 6 samples.

Results

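Potassium channel genes were examined in RNA sequencing of 3 cultures of PANC1OR, an oxaliplatin-resistant subline, and of 3 cultures of PANC1, the untreated parental line, with 1 library per culture. The genes were chosen by symbol: every table row whose symbol begins with 1 of the KCN family stems (KCNA to KCNH, KCNJ, KCNK, KCNMA, KCNMB, KCNN, KCNQ, KCNS, KCNT, KCNV) and ends in a digit, leaving out antisense and pseudogene names. Of 113 name matches, 22 were left out, and 91 of the 58735 gene rows in the table remained. They carry 90 distinct symbols, because KCNMB2 has a second identifier without reads. No measured value entered the choice of members, but the family was taken up with earlier results of the same comparison known, so the share of members that differed is given as a description beside the share of all genes.

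PANC1 is an established human pancreatic ductal carcinoma line. PANC1OR was selected from it over successive passages under increasing oxaliplatin, a platinum compound that crosslinks DNA, until it proliferated stably with no drug. The sources used here do not say if oxaliplatin was still in the medium when RNA was taken. Only 1 parental and 1 resistant line were grown, as 3 cultures each, so the tests reflect variation among cultures and not among separately selected resistant lines. The comparison addresses how the resistant subline differs from its parent.

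Potassium channels let potassium ions pass the membrane selectively, usually outward, and so set the resting potential, shape repolarisation and take part in control of cell volume. Voltage-gated alpha subunits open on depolarisation, and some of them are electrically silent, forming channels only together with alpha subunits of another subfamily. Inward rectifiers and tandem-pore leak channels hold the membrane near its resting potential, and ion-activated channels open on intracellular calcium or sodium. In the pancreatic duct, potassium channels provide the driving force for anion and fluid secretion.

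The libraries held 12623721 to 26394388 reads in PANC1OR and 10199268 to 15875431 reads in PANC1. PANC1OR replicate 3 stood apart: relative to the other PANC1OR replicates, its median log2 deviation (of CPM + 0.5) was 1.23 over 2293 genes with a transcript GC content over 60% and -0.88 over 3325 genes under 40%. The same medians for PANC1 replicate 2 were 0.31 and -0.23. Among the 37 potassium channel genes with enough reads for a test, the 13 with GC over 60% deviated by a median of 0.96 in PANC1OR replicate 3 and the other 24 by -0.04. Across these 37 genes Pearson's r between GC content and that deviation was 0.75, as a description of points that share 1 library.

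**Figure D1:**
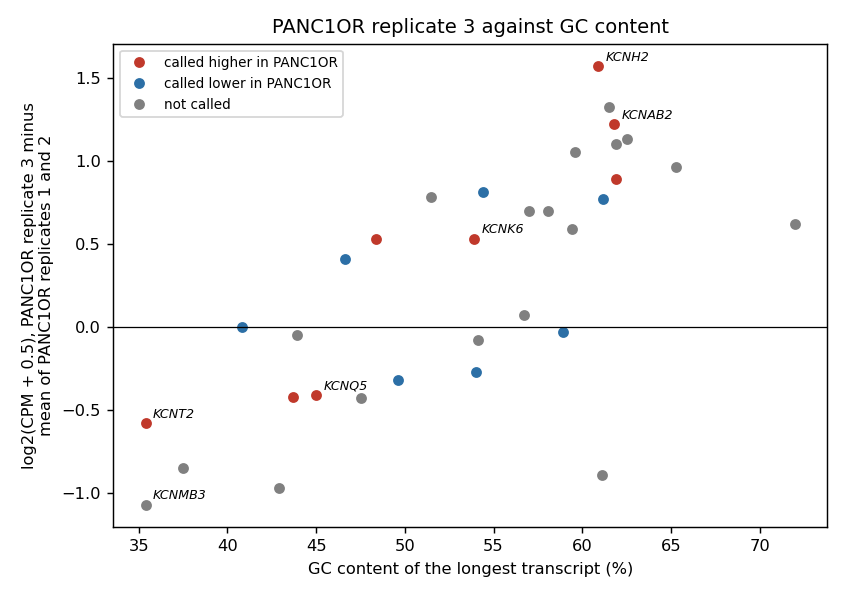
Deviation of PANC1OR replicate 3 from the mean of PANC1OR replicates 1 and 2 (log2 of CPM + 0.5, y axis, with CPM the scaled read count) against the GC content of the longest transcript (percent, x axis) for 33 of the tested potassium channel genes, coloured by call. Genes with a high GC content mostly lie above 0 and those with a low GC content mostly below it, with r = 0.75 over all 37 tested genes.

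Of the 91 members, 77 had at least 1 read in the 6 libraries and 14 had none, among them KCNA3, KCNA4, KCNA5, KCNA6, KCNC2, KCND2 and KCNK18. A gene was tested where it passed edgeR's expression filter, at about 0.638 CPM in 3 libraries, and 37 members did. Of these, 27 passed through both lines, 5 through PANC1OR alone (2 of these called higher in PANC1OR), and 5 through PANC1 alone (3 called lower), where the filter itself favours a difference. Of the 54 untested members, 23 had 1 to 10 reads over all libraries and 17 had more, up to 58. CPM denotes reads scaled to an effective library size that edgeR's TMM method adjusts.

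By edgeR's quasi-likelihood test at a Benjamini-Hochberg adjusted p under 0.05 over all 18751 tested genes, 8 members were higher in PANC1OR and 9 were lower. That is 45.9% of the tested members, beside 17.8% of all tested genes. The share of all tested genes was 10.3% higher and 7.5% lower. With the stricter cutoffs named in the study's design, an absolute log2 fold change over 2 and an adjusted p under 0.01, 6 members were higher and 5 lower, beside 6.25% of all tested genes. The median log2 fold change of the tested members was 0.07, also with genes at few reads set at their bound, and 0.04 over all tested genes. The median absolute log2 fold change was 1.41 in the members and 0.43 over all tested genes. Without PANC1OR replicate 3, 11 members were higher and 13 lower of 39 tested, 61.5%, beside 44.1% of all tested genes (22.1% higher and 22.0% lower).

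**Figure D2:**
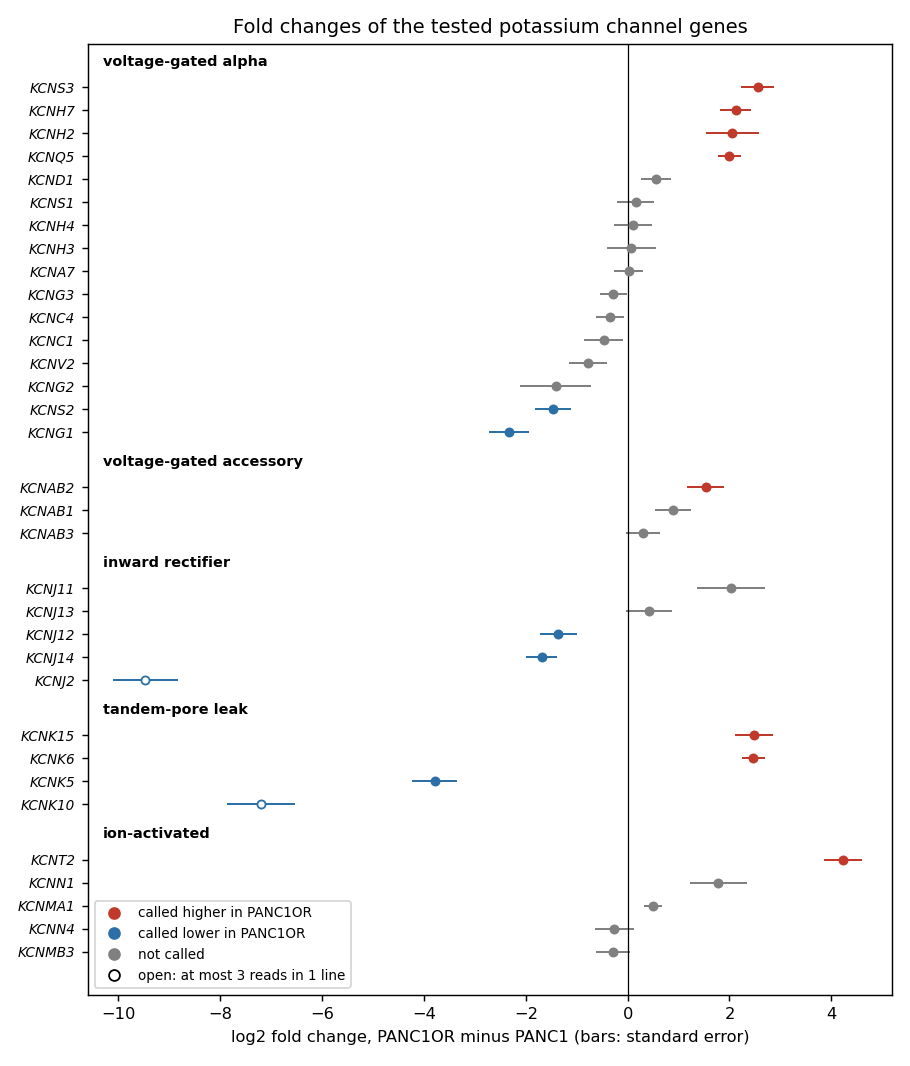
Log2 fold change with its standard error (x axis, PANC1OR minus PANC1) of 33 of the 37 tested potassium channel genes, grouped by role (y axis). The 8 genes called higher lie between 1.53 and 4.23 and those called lower at -1.36 and below. Open symbols have at most 3 reads in PANC1OR, where the fitted fold change depends on a prior count and is no bound.

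Inward rectifiers were lower or not called in PANC1OR: of 16 members, 5 were tested, 3 were lower and 0 higher by edgeR (1, KCNJ11, was higher at an unadjusted p under 0.05 and with DESeq2). KCNJ2 (ENSG00000123700, chr17:70168673-70180044, plus strand, GRCh38) encodes a strong inward rectifier that holds the resting potential of heart and skeletal muscle. It had 0 reads in all 3 PANC1OR libraries, against 5.35, 4.39 and 6.67 CPM in PANC1. The 237 reads in PANC1 against none put it at least 103.3-fold lower in PANC1OR, with a floor of 3 reads over the line (adjusted p = 0.000288 by edgeR). KCNJ2 passed the filter through PANC1 alone. KCNJ14 and KCNJ12 encode channels of the same subfamily as KCNJ2. KCNJ14 had 2.21, 1.44 and 1.40 CPM in PANC1OR, against 4.92, 6.79 and 5.01 CPM in PANC1, and fell by 1.69 ± 0.30 (log2, SE; edgeR adjusted p = 0.00561). KCNJ12 had 1.65, 1.44 and 2.97 CPM in PANC1OR, against 5.98, 3.34 and 5.87 CPM in PANC1 (log2 fold change -1.36 ± 0.37, edgeR adjusted p = 0.0386). In none of these 3 genes, named because they were called, did the lines' libraries overlap. KCNJ12 has a near-identical copy, KCNJ18, listed with 0 reads, so its value is uncertain. Its call was also lost without PANC1 replicate 1 (adjusted p = 0.145), PANC1 replicate 3 (0.154), PANC1OR replicate 1 (0.125) or PANC1OR replicate 2 (0.116). KCNJ4, of the same subfamily, had 2 reads in PANC1OR and 2 in PANC1 and was not tested.

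The other tested inward rectifiers were not called. KCNJ11, the pore of the ATP-sensitive channel of beta cells, had 0.673, 0.812 and 2.06 CPM in PANC1OR, against 0.124, 0.522 and 0.245 CPM in PANC1 (log2 fold change 2.03 ± 0.66, edgeR adjusted p = 0.0742). PANC1OR replicate 3 was the highest, and without it the log2 fold change was 1.43 (adjusted p = 0.057). Of its sulfonylurea receptor partners, ABCC8 had 1 read in PANC1OR and 16 in PANC1, and ABCC9 had none in either line. The KCNJ11 gene overlaps NCR3LG1 on the opposite strand, though their exons do not overlap. NCR3LG1 had 2375, 1421 and 920 reads in PANC1OR, against 283, 143 and 297 in PANC1 (log2 fold change 2.32, edgeR adjusted p = 0.000155). With the strand setting of the counts not given, reads of unspliced NCR3LG1 RNA cannot be told apart from KCNJ11 reads. KCNJ13, an inward rectifier of epithelia, differed by 0.42 ± 0.45 on the log2 scale. Its exons overlap those of GIGYF2 over 810 bases of the opposite strand. GIGYF2 had 5172, 3018 and 2011 reads in PANC1OR, where KCNJ13 had 159, 103 and 39. With the strand setting of the counts not given, reads of the 2 genes cannot be told apart there. Of the untested members, KCNJ10, a channel of glia and kidney tubule, had 28 reads in PANC1OR and 9 in PANC1, and KCNJ5, a heart subunit gated by G proteins, had 18 and 21.

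**Figure D3:**
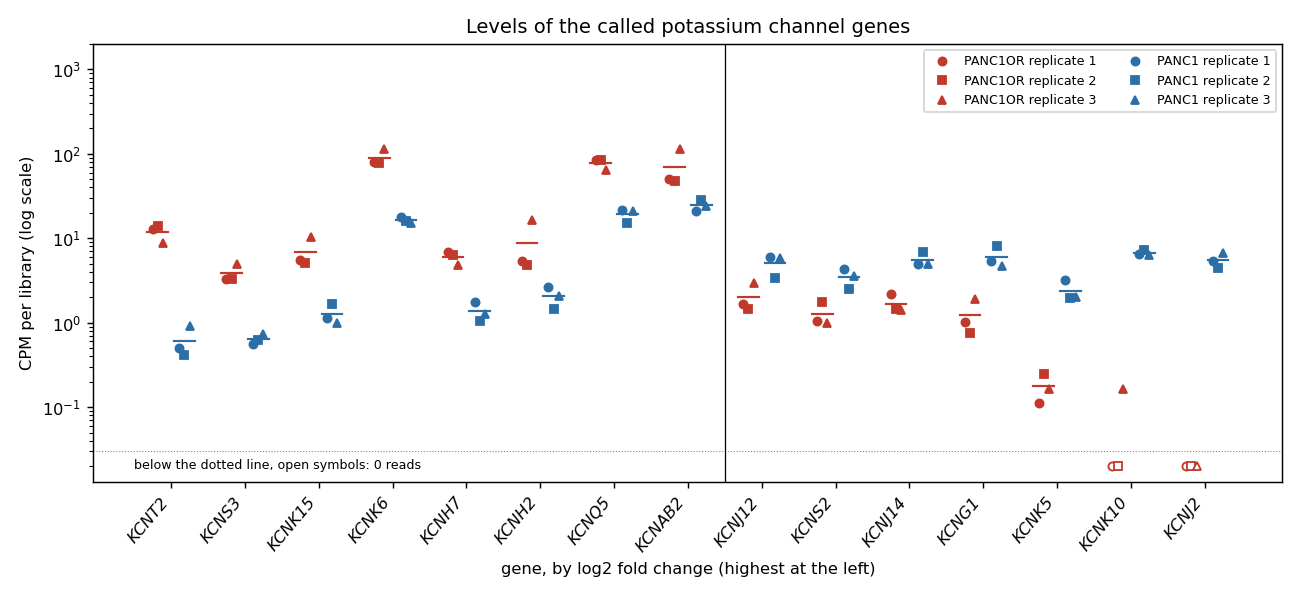
CPM per library on a log axis (y axis) of 15 of the 17 called potassium channel genes (x axis, ordered by log2 fold change), with the 3 PANC1OR libraries left of the 3 PANC1 libraries for each gene, horizontal lines at the means, and open symbols below the dotted line for 0 reads. The lines' libraries do not overlap in these genes, which were drawn because they were called, and KCNJ2 has no read in PANC1OR. KCNMA1, which was not called, shows no overlap either, and the share without overlap over all tested genes was not counted.

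Of 15 tandem-pore leak genes 4 were tested, and all 4 were called, 2 in each direction, beside 17.8% of all tested genes. KCNK6 (ENSG00000099337, chr19:38319845-38332076, plus strand), which encodes a leak channel of endolysosomal membranes, was the most abundant of them. It had 79.7, 77.1 and 114 CPM in PANC1OR, against 17.7, 16.1 and 15.1 CPM in PANC1, and rose by 2.47 ± 0.23 on the log2 scale (edgeR adjusted p = 0.000243). KCNK15, whose product forms no current by itself in expression systems, had 5.46, 5.12 and 10.2 CPM in PANC1OR, against 1.12, 1.67 and 0.979 CPM in PANC1 (2.48 ± 0.38, edgeR adjusted p = 0.00311). In both genes every PANC1OR library lay above every PANC1 library, and PANC1OR replicate 3 was the highest.

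The genes for a mechanosensitive and a pH-sensitive leak channel were lower. KCNK10 (ENSG00000100433, chr14:88180103-88326907, minus strand) encodes a leak channel opened by stretch, heat and fatty acids. It had no read in PANC1OR replicates 1 and 2 and 0.165 CPM in replicate 3, against 6.47, 7.21 and 6.36 CPM in PANC1. Its 2 reads in PANC1OR against 277 in PANC1 correspond to a PANC1 to PANC1OR ratio of 181.0 with an exact 95% counting interval of 49.64 to 1502 (edgeR adjusted p = 0.000259). The fitted log2 fold change was -7.20, and it was -6.37 without PANC1OR replicate 1 and -9.82 without PANC1OR replicate 3, the library with both reads. KCNK5, which encodes an alkaline-activated leak channel that takes part in volume regulation, had 0.112, 0.250 and 0.165 CPM in PANC1OR, against 3.17, 1.99 and 2.02 CPM in PANC1, and fell by 3.79 ± 0.44 on the log2 scale (edgeR adjusted p = 0.000781). KCNK10 and KCNK5 passed the filter through PANC1 alone. Among untested members KCNK3, an acid-sensitive leak channel, had 1 read in PANC1OR and 20 in PANC1, a PANC1 to PANC1OR ratio of 26.14 with an interval of 4.181 to 1084. KCNK12 had 40 reads in PANC1OR and 9 in PANC1, and KCNK7 had 42 and 16. Summed per kilobase of exon, tandem-pore genes reached 18.1 ± 5.01 CPM per kilobase in PANC1OR and 5.03 ± 0.393 in PANC1 (SD, n = 3 each), with KCNK6 giving 14.6 ± 3.31 and 2.64 ± 0.215 of these sums.

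Among ion-activated channels KCNT2 had the highest log2 fold change of all tested members. KCNT2 (ENSG00000162687, chr1:196225779-196609225, minus strand) encodes an outward channel activated by intracellular sodium and chloride. It had 12.89, 13.99 and 8.835 CPM in PANC1OR, against 0.498, 0.418 and 0.917 CPM in PANC1, and rose by 4.23 ± 0.37 on the log2 scale (edgeR adjusted p = 0.000195). It passed the filter through PANC1OR alone. KCNMA1, the large-conductance calcium-activated channel, was the main potassium channel transcript by reads in both lines, with 56.1% ± 5.25 of all member reads in PANC1OR and 58.1% ± 2.99 in PANC1 (SD, n = 3 each). It had 492, 503 and 479 CPM in PANC1OR, against 365, 292 and 387 CPM in PANC1, a log2 fold change of 0.50 ± 0.18 that was not called (edgeR adjusted p = 0.0971). The libraries did not overlap, and without PANC1OR replicate 3 the log2 fold change was again 0.50 with an adjusted p of 0.021.

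KCNN4, the intermediate-conductance calcium-activated channel of epithelia and lymphocytes, had 10.4, 11.7 and 28.2 CPM in PANC1OR, against 17.1, 23.8 and 19.1 CPM in PANC1. PANC1OR replicate 3 lay above all PANC1 libraries and the other PANC1OR libraries below them. Its log2 fold change was -0.26 ± 0.39 with all libraries (edgeR adjusted p = 0.719) and -0.86 without PANC1OR replicate 3 (adjusted p = 0.00449), and its GC content is 61.5%. KCNN1, a small-conductance calcium-activated channel of neurons, had 1.42, 0.937 and 3.14 CPM in PANC1OR, against 0.560, 0.731 and 0.306 CPM in PANC1 (1.78 ± 0.56, edgeR adjusted p = 0.0639). It was called without PANC1OR replicate 3 (log2 fold change 1.24, adjusted p = 0.0427) and without PANC1OR replicate 2. KCNMB3, an accessory beta subunit of KCNMA1 channels, differed by -0.29 ± 0.33. Its exons overlap those of PIK3CA over 3403 bases of the opposite strand, and with the strand setting of the counts not given, reads of the 2 genes cannot be told apart.

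Of 40 voltage-gated alpha genes, 20 were tested, 4 were higher and 4 were lower. KCNQ5 (ENSG00000185760, chr6:72621792-73198853, plus strand) encodes a slowly activating subunit of the M current, which damps excitability. It had 85.3, 84.3 and 63.8 CPM in PANC1OR, against 21.9, 15.3 and 21.0 CPM in PANC1, and rose by 2.00 ± 0.23 on the log2 scale (edgeR adjusted p = 0.000707). Its share of member reads was 8.94% in PANC1OR and 3.23% in PANC1. KCNQ1, a subunit of heart and epithelia, had 15 reads in PANC1OR and 31 in PANC1 and was not tested. Its exons overlap those of KCNQ1OT1, a transcript of the opposite strand, over 121 bases. With the strand setting of the counts not given, their reads cannot be told apart there.

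Of the ether-a-go-go family, KCNH7 and KCNH2 were higher. KCNH7 (chr2:162371407-162838767, minus strand), of neuronal type, had 6.84, 6.37 and 4.79 CPM in PANC1OR, against 1.74, 1.04 and 1.28 CPM in PANC1 (2.12 ± 0.30, edgeR adjusted p = 0.00197). KCNH2 (chr7:150944961-150978321, minus strand), which carries the rapid delayed rectifier current of the heart, had 5.42, 4.87 and 16.3 CPM in PANC1OR, against 2.68, 1.46 and 2.08 CPM in PANC1. Its log2 fold change was 2.05 ± 0.52 (edgeR adjusted p = 0.0287). The height of KCNH2 rests in part on PANC1OR replicate 3: without it the log2 fold change was 1.26 (adjusted p = 0.00416). The KCNH2 call was lost without PANC1 replicate 1 (adjusted p = 0.0765), 2 (0.118) or 3 (0.117). KCNH6, of the same subfamily, had 44 reads in PANC1OR and 13 in PANC1 and was not tested. KCNH8 had 15 reads in PANC1OR and 0 in PANC1, at least 3.825-fold higher. KCNH3 and KCNH4 differed by 0.07 and 0.11, and without PANC1OR replicate 3 both turned, to -0.38 and -0.41, again not called.

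The electrically silent subunit genes differed in direction. Of 10 such genes, 7 were tested, 1 was higher and 2 were lower. KCNS3 had 3.29, 3.25 and 4.95 CPM in PANC1OR, against 0.560, 0.627 and 0.734 CPM in PANC1 (2.55 ± 0.33, edgeR adjusted p = 0.00126), and passed the filter through PANC1OR alone. KCNG1 had 1.01, 0.749 and 1.90 CPM in PANC1OR, against 5.35, 8.04 and 4.65 CPM in PANC1 (-2.33 ± 0.40, edgeR adjusted p = 0.0052). KCNS2 had 1.05, 1.75 and 0.991 CPM in PANC1OR, against 4.30, 2.51 and 3.61 CPM in PANC1 (-1.47 ± 0.35, edgeR adjusted p = 0.0215). The KCNS2 call was lost without PANC1 replicate 1 (adjusted p = 0.0993), PANC1 replicate 3 (0.088) or PANC1OR replicate 1 (0.088). Summed per kilobase of exon, the silent subunit genes reached 4.38 ± 0.502 CPM per kilobase in PANC1OR and 5.35 ± 0.572 in PANC1 (SD, n = 3 each). KCNG3 differed by -0.28 ± 0.27 and KCNV2 by -0.78 ± 0.37, and KCNV2 was called without PANC1OR replicate 3 (log2 fold change -1.13, adjusted p = 0.0198).

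KCNC4, a rapidly inactivating subunit of neurons, had 14.5, 13.4 and 24.3 CPM in PANC1OR, against 24.3, 18.9 and 22.9 CPM in PANC1 (-0.35 ± 0.28, edgeR adjusted p = 0.467). Without PANC1OR replicate 3 its log2 fold change was -0.67 (adjusted p = 0.00822). Of the other tested alpha genes, KCNC1, KCND1, KCNA7, KCNG2 and KCNS1 were not called and lay between -1.41 and 0.56. KCNA2 had 2 reads in PANC1OR and 14 in PANC1.

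Of the 8 accessory subunit genes, 3 were tested and 1 was higher. KCNAB2, a cytoplasmic beta subunit with the fold of an aldo-keto reductase, had 50.2, 47.3 and 114 CPM in PANC1OR, against 21.2, 28.1 and 24.1 CPM in PANC1 (1.53 ± 0.36, edgeR adjusted p = 0.022). Its GC content is 61.8%, and without PANC1OR replicate 3 its log2 fold change was 0.99 (adjusted p = 0.000751). The KCNAB2 call was lost without PANC1 replicate 1 (adjusted p = 0.104), 2 (0.0731) or 3 (0.101). KCNAB1, a beta subunit that speeds inactivation, had 7.25, 7.31 and 3.47 CPM in PANC1OR, against 3.55, 2.19 and 3.91 CPM in PANC1, with overlap through PANC1OR replicate 3 alone. It was not called with all libraries (0.89 ± 0.36, edgeR adjusted p = 0.142) and was called without PANC1OR replicate 3 (1.12, adjusted p = 0.00493). KCNAB3 differed by 0.30 ± 0.33. The KCNE genes, small subunits that modulate KCNQ1 and KCNH2 channels, had too few reads for a test.

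On a per-length scale, CPM per kilobase of exon, KCNK6 and KCNMA1 were the highest members in PANC1OR. KCNK6 stood at 14.6 ± 3.31 in PANC1OR and 2.64 ± 0.215 in PANC1. KCNMA1 stood at 12.5 ± 0.306 in PANC1OR and 8.82 ± 1.26 in PANC1, with a union of annotated exons of 39.44 kilobases that lowers its per-length value. KCNQ5 followed with 6.87 ± 1.07 in PANC1OR and 1.71 ± 0.312 in PANC1, KCNN4 with 5.361 ± 3.172 in PANC1OR and 6.399 ± 1.11 in PANC1, and KCNAB2 with 4.10 ± 2.19 and 1.42 ± 0.200 (SD, n = 3 each). Within PANC1OR the means of KCNK6 and KCNMA1 lay within the SD of KCNK6, and those of KCNQ5 and KCNN4 within the SD of KCNN4. In PANC1 the order was KCNMA1, KCNN4, then KCNK6. Summed by role per kilobase, inward rectifiers reached 2.65 ± 0.255 in PANC1OR and 4.52 ± 0.680 in PANC1, voltage-gated alpha genes 20.1 ± 2.35 and 16.7 ± 1.21, accessory genes 5.96 ± 1.99 and 2.72 ± 0.147, and ion-activated genes 20.7 ± 2.58 and 16.3 ± 0.583. The level of all members summed was 841.3, 842.3 and 956.6 CPM in PANC1OR, against 619.5, 532.5 and 637.6 CPM in PANC1.

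**Figure D4:**
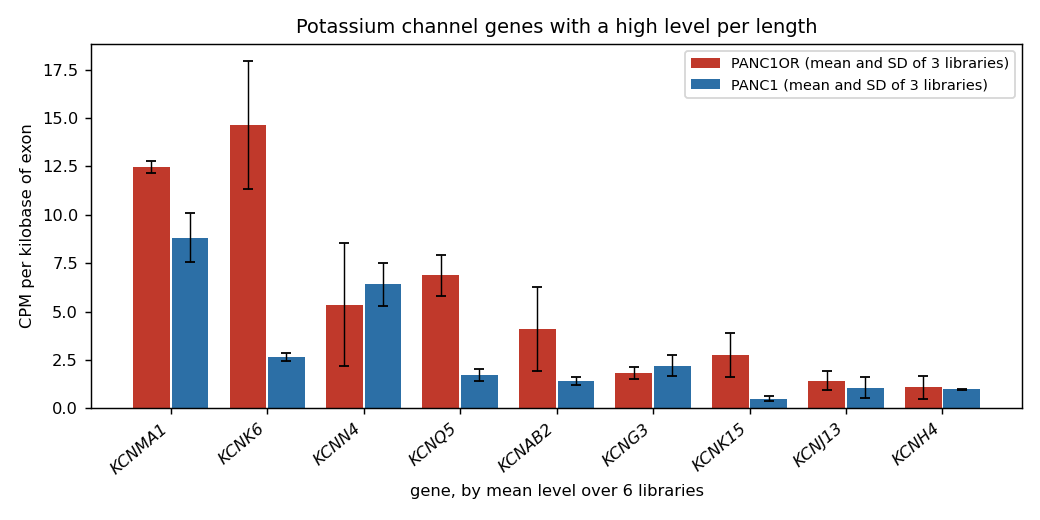
CPM per kilobase of exon (y axis, mean with SD of 3 libraries) of 9 of the 10 potassium channel genes with the highest mean level over the 6 libraries (x axis), PANC1OR left of PANC1. KCNK6 stands at 14.6 in PANC1OR and 2.64 in PANC1, and KCNN4 at 5.361 and 6.399 with overlapping error bars.

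Opposite-strand transcripts of KCNQ5 and KCNH7 were higher together with these genes. KCNQ5-DT, a noncoding RNA transcribed away from the KCNQ5 promoter, had 199, 96 and 124 reads in PANC1OR, against 15, 10 and 11 in PANC1 (log2 fold change 3.17 ± 0.33, edgeR adjusted p = 0.000448). The RefSeq start of KCNQ5 lies 9 bases from the annotated start of KCNQ5-DT. KCNQ5-AS1 was higher by 2.19 ± 0.45 (edgeR adjusted p = 0.0115), a call lost without PANC1 replicate 1 (0.0527), 2 (0.0519) or 3 (0.0502). KCNH7-AS1 was higher by 2.23 ± 0.40 (edgeR adjusted p = 0.00657). KCNJ2-AS1, which starts 128 bases from the RefSeq start of KCNJ2, had 1 read in PANC1OR and 13 in PANC1 and was not tested. KCNK15-AS1 had 42 reads in PANC1OR and 4 in PANC1. KCNMA1-AS1 was not called with all libraries (0.63, edgeR adjusted p = 0.197) and was called without PANC1OR replicate 3 (0.78, adjusted p = 0.0206).

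Exons of KCNQ5 overlap those of KCNQ5-AS1 over 649 bases and those of KCNQ5-DT over 282, and KCNJ2 and KCNJ2-AS1 overlap over 185 bases, so their reads cannot be told apart there. The same holds for KCNMA1 and KCNMA1-AS1, which overlap over 419 bases, and for KCNK15 and KCNK15-AS1, over 57 bases. Exons of KCNH7 and KCNH7-AS1 do not overlap. However, KCNH7-AS1 lies within the KCNH7 gene, KCNQ5-AS1 within the KCNQ5 gene and KCNMA1-AS1 within the KCNMA1 gene. With the strand setting of the counts not given, reads of unspliced RNA of these genes cannot be told apart from reads of the antisense transcripts. KCNH7 overlaps GCA, a neighbour on the opposite strand, over 189 bases, and GCA was higher by 1.40 (edgeR adjusted p = 0.00701). KCNQ1OT1, the imprinted transcript that lies antisense within KCNQ1, had 2974, 1658 and 1145 reads in PANC1OR, against 5102, 1742 and 4344 in PANC1, and fell by 1.31 ± 0.23 on the log2 scale (edgeR adjusted p = 0.0061).

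**Figure D5:**
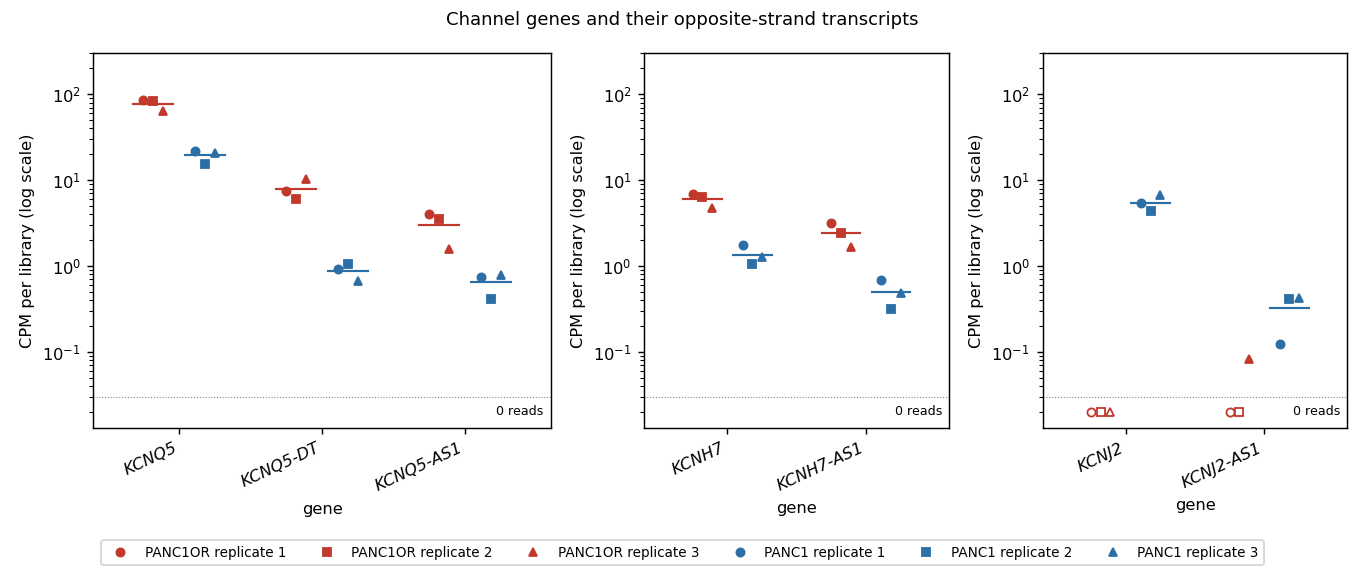
CPM per library on a log axis (y axis) of KCNQ5, KCNH7 and KCNJ2 and of opposite-strand transcripts named after them (x axis), with PANC1OR left of PANC1, lines at the means where no library is at 0 reads, and open symbols below the dotted line for 0 reads. KCNQ5-DT and KCNQ5-AS1 are higher in all PANC1OR libraries, as KCNQ5 is, and KCNJ2-AS1 has 1 read in PANC1OR.

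Promoter sequences are shown for the 2 members nearest to complete loss, KCNJ2 and KCNK10, for the member with the highest log2 fold change, KCNT2, and for KCNQ5, which shares its start region with a noncoding RNA that changed with it. They are the RefSeq windows of GRCh38.p14 from 250 bases before to 50 after the start, written 5′ to 3′ on the strand of the gene. Capitals mark GGGCGG (the GC box) or TATAAA on either strand. The windows are chr17:70169282-70169581 on the plus strand for KCNJ2, chr14:88326863-88327162 on the minus strand for KCNK10, chr1:196608391-196608690 on the minus strand for KCNT2 and chr6:72621814-72622113 on the plus strand for KCNQ5. The GENCODE gene start lies 859, 5, 785 and 272 bases from the RefSeq start in KCNJ2, KCNK10, KCNT2 and KCNQ5.
KCNJ2: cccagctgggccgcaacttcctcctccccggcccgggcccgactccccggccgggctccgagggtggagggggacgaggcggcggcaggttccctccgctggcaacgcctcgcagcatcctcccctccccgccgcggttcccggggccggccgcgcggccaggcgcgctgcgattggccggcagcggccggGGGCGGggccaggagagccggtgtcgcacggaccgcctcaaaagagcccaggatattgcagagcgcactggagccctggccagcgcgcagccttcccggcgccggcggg
KCNK10: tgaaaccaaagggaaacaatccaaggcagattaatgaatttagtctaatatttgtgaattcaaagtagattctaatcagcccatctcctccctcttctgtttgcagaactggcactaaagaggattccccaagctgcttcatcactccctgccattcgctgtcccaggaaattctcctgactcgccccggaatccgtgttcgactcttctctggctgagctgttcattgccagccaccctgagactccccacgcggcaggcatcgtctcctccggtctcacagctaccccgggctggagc
KCNT2: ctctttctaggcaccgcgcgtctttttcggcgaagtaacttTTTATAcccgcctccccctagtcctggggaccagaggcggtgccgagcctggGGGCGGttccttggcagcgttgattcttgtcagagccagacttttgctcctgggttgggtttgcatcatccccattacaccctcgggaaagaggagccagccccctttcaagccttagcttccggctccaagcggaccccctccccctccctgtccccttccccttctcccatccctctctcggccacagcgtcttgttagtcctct
KCNQ5: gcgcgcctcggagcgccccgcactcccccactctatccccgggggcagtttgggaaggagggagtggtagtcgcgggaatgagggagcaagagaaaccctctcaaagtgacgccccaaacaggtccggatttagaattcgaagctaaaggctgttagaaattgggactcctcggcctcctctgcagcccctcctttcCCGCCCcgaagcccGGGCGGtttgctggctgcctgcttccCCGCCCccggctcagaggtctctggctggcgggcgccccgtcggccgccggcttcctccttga

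The KCNJ2 window holds 39 CpG dinucleotides and 1 GC box, and the KCNQ5 window 24 CpG and GC boxes on both strands. The KCNT2 window holds 15 CpG, a GC box and a TATAAA. The KCNK10 window holds 10 CpG and neither of these motifs. The median over all 34796 RefSeq promoters of this length is 14 CpG, 44.9% hold a GC box and 11.6% a TATAAA. RefSeq windows were matched for 67 members. A GC box was present in 5 of the 6 matched members called higher, in 3 of the 4 called lower and in 10 of the 14 tested and not called. These matches describe letters in the window and do not show that a factor binds.

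Of 20 partner subunits, regulators and related HCN channels, 9 were tested, 0 were higher and 1 was lower by edgeR. At an unadjusted p under 0.05, 2 were higher (KCNRG and KCNIP4), and with DESeq2 0. KCNRG, a suppressor of voltage-gated subunits, differed by 1.23 ± 0.38 (edgeR adjusted p = 0.0578), KCNIP4 by 1.34 (0.162) and KCNIP2 by -0.55 (0.319), none of them called with all libraries. Without PANC1OR replicate 3 all 3 were called, with log2 fold changes of 1.30 for KCNRG (edgeR adjusted p = 0.0198), 1.65 for KCNIP4 (0.00846) and -0.95 for KCNIP2 (0.00793). The likelihood ratio test also called KCNRG (0.01).

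Of 23 genes of potassium pumps and cotransporters, 10 were tested, 2 were higher and 1 was lower. ATP1B1, the beta subunit of the sodium-potassium pump, had 57.4, 55.8 and 41.9 CPM in PANC1OR, against 132, 137 and 124 CPM in PANC1, and fell by 1.34 ± 0.19 on the log2 scale (edgeR adjusted p = 0.00216). SLC12A5, the neuronal potassium-chloride cotransporter, was higher by 1.58 ± 0.36 (edgeR adjusted p = 0.0186), a call lost without PANC1 replicate 1 (0.0754), 2 (0.069) or 3 (0.0659). SLC12A7, another cotransporter of this family, had 124, 116 and 291 CPM in PANC1OR, against 386, 409 and 412 CPM in PANC1, and was not called (-1.18 ± 0.35, edgeR adjusted p = 0.0532). PANC1OR replicate 3 stood above the other PANC1OR libraries, and without it SLC12A7 was lower by a log2 fold change of -1.75 (adjusted p = 1.23e-05). It was also called by DESeq2 (0.0125), with the replicate block (0.0321) and with GC offsets (2.62e-05), in 9 of 15 alternatives in all.

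Markers of duct epithelium were present, KRT7 at a low level of 0.560, 1.25 and 0.428 CPM in PANC1. All 7 (KRT7, KRT8, KRT18, KRT19, EPCAM, CDH1 and SOX9) were tested and 3 of them were lower in PANC1OR, with log2 fold changes of -3.81 for KRT19, -1.22 for CDH1 and -0.67 for SOX9. Without PANC1OR replicate 3 EPCAM was also called lower (-0.61, edgeR adjusted p = 0.0147). The summed level of the 7 markers ranged from 671 to 1370 CPM in PANC1OR libraries and from 1050 to 1940 CPM in PANC1 libraries. Of 7 neuron and neuroendocrine markers 3 were tested and 0 were called by edgeR or DESeq2 (1 higher, SNAP25, and 1 lower, SYP, at an unadjusted p under 0.05, both called without PANC1OR replicate 3), with sums of 14.4 to 23.9 CPM in PANC1OR and 23.1 to 33.4 CPM in PANC1, and with 1 read of ELAVL4 and 1 of STMN2 in all libraries. Of 5 smooth muscle and fibroblast markers 4 were tested and MYH11 was higher (0.91, edgeR adjusted p = 0.0259), with sums of 131 to 316 CPM in PANC1OR and 90.8 to 108 CPM in PANC1. Leukocyte markers summed to 1.31 to 2.56 CPM in PANC1OR and 0.418 to 0.795 CPM in PANC1, with 0 reads of CD3E. INS and GCG, the hormones of islet cells, had 0 reads. PDX1, the other islet marker examined, had 12 reads in PANC1OR and 33 in PANC1, and the lines' libraries did not overlap. It was not tested with all libraries and was called lower without PANC1OR replicate 3 (-1.76, edgeR adjusted p = 0.0476). The part of these marker differences in the potassium channel results was not tested, and fewer cells of a kind and less RNA per cell cannot be told apart in bulk RNA.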

How the data were processed

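The deposited table holds raw read counts per gene for 6 libraries, made by the authors with FastQC 0.11.5, cutadapt through Trim Galore 0.4.2, STAR 2.5 on GRCh38 and featureCounts of Subread 1.6.2, per the submitters' processing notes. The sources used here do not give the annotation release, the strand setting or the handling of multiply aligned reads. The table also held 5 columns without values.

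Totals were 26394388, 15702042 and 12623721 reads for PANC1OR replicates 1 to 3 and 15660171, 10199268 and 15875431 for PANC1. Replicates of a line differed by more than sampling noise (chi-square per degree of freedom 4.21 or more). In R 4.3.3, edgeR 4.0.16 filtered genes by filterByExpr, and libraries were scaled with TMM and compared with the quasi-likelihood test on all 6 libraries without covariates, called at a Benjamini-Hochberg adjusted p under 0.05 over 18751 genes. Adjusted p-values in the text are edgeR's unless named otherwise. Exact 95% counting intervals and the floor of 3 reads per line (0.0547 CPM in PANC1OR, 0.0715 CPM in PANC1) cover counting error only. GENCODE 44 gave positions (1-based), exon length and GC content for all 91 members.

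Members and lists were chosen with earlier results of these data known. The text names every called member, the 10 highest per kilobase, the highest of each role, up to 6 members called only without 1 library and up to 4 genes of each further list by p. Other genes were named after their values were seen, and some genes that the rule names and the counts include are not reported here. Alternatives were DESeq2 1.42.0, other scalings, no filter, the likelihood ratio test, GC offsets, the replicate block, leaving out libraries and the study's cutoffs.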

Additional observations from a re-analysis of the deposited data

How the results depend on the processing

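With all libraries 8 members were called higher, 9 lower, and 3345 of all tested genes were called, with a median log2 fold change of the tested members of 0.07. Leaving out 1 library gave 6 to 11 members higher, 7 to 13 lower, 1821 to 8663 genes called and a member median of -0.17 to 0.21. When PANC1 replicate 2 and also PANC1OR replicate 3 were dropped, 14 members were lower, 11422 genes were called and the median was -0.04. GC offsets called 7311 genes, and GC offsets with the replicate block 6263. Without the filter on low counts the median was -0.13. The cutoffs of the study's design left 5 members lower and 1172 genes. DESeq2 called 4067 genes and the likelihood ratio test 4169. The causes of these shifts were not tested.

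Of the 17 called members, 13 were called under each of the 15 alternatives other than the study's cutoffs. All 17 were called without PANC1OR replicate 3 and with GC offsets. The exceptions to the 13 were KCNJ12, KCNAB2, KCNH2 and KCNS2, as given above. The study's cutoffs, not among these 15, left 6 members higher and 5 lower, and KCNJ14 did not pass them. KCNH4, which was not called, stood at 0.11 and turned to -0.40 with both libraries dropped, and ranged from -0.41 without PANC1OR replicate 3 to 0.31 without PANC1OR replicate 2. Under the replicate block 8 members were higher and 8 lower, with 2324 genes called and a median of 0.01, and KCNS2 lost its call (adjusted p = 0.069). Deviations of same-numbered libraries correlated at r = 0.444, -0.429 and -0.209 over genes, not every library correlated best with its own number, and the numbers were taken not to pair the cultures. Genes with few reads set the limit of depth: 54 members were not tested.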
